A study of Homo sapiens with 16 samples.

Results

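7 receptor genes of neural crest and sympathetic neurons were followed through an EZH2 inhibitor experiment in neuroblastoma cells: RET, its co-receptors GFRA1, GFRA2 and GFRA3, ALK, and the neurotrophin receptor genes NTRK2 and NTRK3. They were taken by symbol from a count table of 25728 gene symbols, and all 7 were found. RNA was sequenced from LAN-1 and Kelly, a pair of established human neuroblastoma lines in which MYCN is amplified. Each line was kept with 2 uM GSK126, an inhibitor of EZH2, or with DMSO, its solvent, and was sampled after 2 or 5 days. The 8 groups were LAN-1 with GSK126 at day 5 and day 2, LAN-1 with DMSO at day 5 and day 2, and the same 4 conditions in Kelly, with 2 libraries each. No untreated cells and no allele other than those of the lines themselves entered the design. Each line stands for a single tumour, so a difference between the lines compares these cultures.

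RET is a receptor tyrosine kinase that signals for the GDNF family of ligands, but it binds them only through a GPI-anchored co-receptor of the GFRA family. GFRA1 prefers GDNF, GFRA2 prefers neurturin and GFRA3 prefers artemin. ALK is a receptor tyrosine kinase of the developing nervous system and a known oncogene of neuroblastoma. NTRK2 encodes TRKB, the receptor for BDNF, and NTRK3 encodes TRKC, the receptor for neurotrophin-3. In neuroblastoma, TRKB has been tied to aggressive tumours and TRKC to favourable ones. EZH2 is the catalytic subunit of PRC2, which places the repressive mark H3K27me3, in mammals largely at promoters rich in CG dinucleotides. No chromatin mark was measured here.

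Library totals ran from 912095 to 1666190 counts, and the smallest was LAN-1 with GSK126 at day 5, replicate 2. Between the duplicates of a group, the variance over genes was 1.11 to 2.04 times that of counting alone. It was highest in LAN-1 with GSK126 at day 5 (2.04) and in Kelly with DMSO at day 2 (1.83). All 8 neuroblastoma markers checked were present in both lines, although DBH and TH, enzymes of noradrenaline synthesis, averaged only 2.4 and 1.2 CPM in LAN-1. Markers of blood cells summed to at most 5.51 CPM in any library, those of epithelium to at most 9.88 CPM and those of endothelium to at most 18.9 CPM. CPM is the count per 1e6 counts of a TMM-scaled library. The labels do not say whether the duplicates were separate cultures. Every p-value therefore reflects the spread between duplicates, which may be technical. That spread was estimated over all 8 groups together, so a group with wider duplicates got no estimate of its own.

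RefSeq's table of transcription starts matched 6 of the 7 genes, RET, GFRA1, GFRA3, ALK, NTRK2 and NTRK3. The 250 bases before the start are shown for RET, NTRK3 and ALK, since these genes were higher with GSK126 in LAN-1 at day 5. The sequences come from RefSeq's table on GRCh38.p14 and each matched its GRCh37 chromosome exactly once. On GRCh37 they lie at chr10:43572267-43572516 on the plus strand (RET), chr15:88799971-88800220 on the minus strand (NTRK3) and chr2:30144453-30144702 on the minus strand (ALK). They are written 5′ to 3′ along the gene, with each CG dinucleotide in capitals.
RET: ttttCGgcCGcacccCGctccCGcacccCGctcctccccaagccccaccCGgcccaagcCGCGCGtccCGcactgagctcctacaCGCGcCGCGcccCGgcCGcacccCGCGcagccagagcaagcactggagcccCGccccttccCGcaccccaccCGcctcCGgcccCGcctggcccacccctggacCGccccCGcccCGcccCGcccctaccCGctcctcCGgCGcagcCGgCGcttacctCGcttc
NTRK3: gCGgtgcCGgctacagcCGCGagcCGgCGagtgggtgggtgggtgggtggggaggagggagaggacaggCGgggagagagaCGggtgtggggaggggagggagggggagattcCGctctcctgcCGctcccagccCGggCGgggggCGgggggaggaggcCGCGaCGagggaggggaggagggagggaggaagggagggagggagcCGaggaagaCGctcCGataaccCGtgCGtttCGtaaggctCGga
ALK: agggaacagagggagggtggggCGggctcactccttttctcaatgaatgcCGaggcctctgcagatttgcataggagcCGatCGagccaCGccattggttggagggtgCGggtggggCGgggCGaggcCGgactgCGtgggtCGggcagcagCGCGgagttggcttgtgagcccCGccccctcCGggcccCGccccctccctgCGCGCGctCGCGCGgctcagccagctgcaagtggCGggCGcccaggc
The motif searched was CG, which reads the same on both strands and cannot overlap itself. RET held 33 of them, as many as or more than which were found in 8.15% of 35116 windows of this length before RefSeq starts. ALK held 24 (23.7% of windows) and NTRK3 held 23 (25.8% of windows). The other RET start held 6 and the other ALK start held 2. Of the genes not called with GSK126, GFRA1 held 5, 23, 17 and 4 at its 4 starts, and GFRA3 held 14. NTRK2, which was not tested, held 7, 31, 13 and 3 at its 4 starts. Windows as rich in CG thus also lay before genes with no call. These counts describe the letters of the windows only.

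RET was higher with GSK126 at day 5 in both lines, and in Kelly its level in DMSO was lower at day 5 than at day 2. The gene lies at chr10:43572512-43625799 on the plus strand of GRCh37. RET in LAN-1 at day 5 had 153.9 and 151 CPM with GSK126, against 89.83 and 78.99 CPM with DMSO. Kelly had 233.6 and 204.7 CPM with GSK126 at day 5, against 91.18 and 92.4 CPM with DMSO. In both lines the GSK126 libraries lay above the DMSO libraries with no overlap, and the DMSO levels of the lines at day 5 were close to each other. RET rose 1.80-fold in LAN-1 (log2 fold change 0.85 ± 0.14 SE, edgeR adjusted p = 5.89e-06, n = 2 each). In Kelly it rose 2.38-fold, and the log2 fold change stayed between 1.16 and 1.34 whichever of the 4 libraries was left out. In LAN-1 it stayed between 0.76 and 0.95, and the call was kept in all 4 of these fits in each line.

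At day 2, RET had 138.7 and 128.4 CPM with GSK126 in LAN-1, against 110.8 and 112.1 CPM with DMSO. Kelly had 229.6 and 246.3 CPM with GSK126 at day 2, against 186.9 and 200.9 CPM with DMSO. The GSK126 libraries were again the higher ones in each line, by less than at day 5. Neither difference was called, with log2 fold changes of 0.26 ± 0.13 in LAN-1 (edgeR adjusted p = 0.793) and 0.29 ± 0.11 in Kelly (edgeR adjusted p = 0.435).

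In Kelly with DMSO, RET averaged 91.79 ± 0.867 CPM at day 5 and 193.9 ± 9.95 CPM at day 2 (SD, n = 2 each), with no overlap. It fell by 1.08 ± 0.12 on the log2 scale (edgeR adjusted p = 2.82e-10), and the call was kept whichever of the 4 libraries was left out. With GSK126 in Kelly, RET averaged 219.2 ± 20.4 CPM at day 5 and 237.9 ± 11.8 CPM at day 2. The libraries of those days overlapped, and the log2 difference of -0.12 ± 0.11 was not called (edgeR adjusted p = 0.700). The GSK126 effect on RET in Kelly was larger at day 5 than at day 2 by 0.96 ± 0.16 on the log2 scale (edgeR adjusted p = 4.61e-05). The same value is the day 5 to day 2 change with GSK126 less that with DMSO, and the GSK126 contrast at day 5 shares its DMSO libraries with the DMSO time contrast. In LAN-1 with DMSO, RET averaged 84.41 ± 7.67 CPM at day 5 and 111.4 ± 0.905 CPM at day 2. That difference of -0.39 ± 0.14 on the log2 scale was not called (edgeR adjusted p = 0.323), nor was the larger effect of GSK126 at day 5 in LAN-1 (0.59 ± 0.19, edgeR adjusted p = 0.172). These are levels in bulk RNA, in which fewer cells with a transcript and less transcript per cell cannot be told apart.

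The sum over the 8 neuroblastoma markers in Kelly at day 5 was 4106.0 and 4097.9 CPM with GSK126, against 5813.6 and 5943.0 CPM with DMSO. The sum over the 8 mesenchymal markers was 743 and 753 CPM with GSK126, against 383 and 374 CPM with DMSO. Schwann cell and glial markers, with S100B and CDH19 at 0 in every library, summed to 17.2 and 18.3 CPM with GSK126, against 8.22 and 7.29 CPM with DMSO. Endothelial markers summed to 18.9 and 10.7 CPM with GSK126, against 2.24 and 4.86 CPM with DMSO. The neuroblastoma sums in LAN-1 at day 5 were 3461.2 and 3906.6 CPM with GSK126, against 3542.5 and 3521.1 CPM with DMSO. There the mesenchymal sums were 1525.7 and 1395.1 CPM with GSK126, against 1278.6 and 1137.8 CPM with DMSO. With DMSO in LAN-1 the mesenchymal sums were 1278.6 and 1137.8 CPM at day 5, against 1472.7 and 1386.1 CPM at day 2. The part of these marker shifts in the changes of the receptor genes was not tested.

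**Figure D1:**
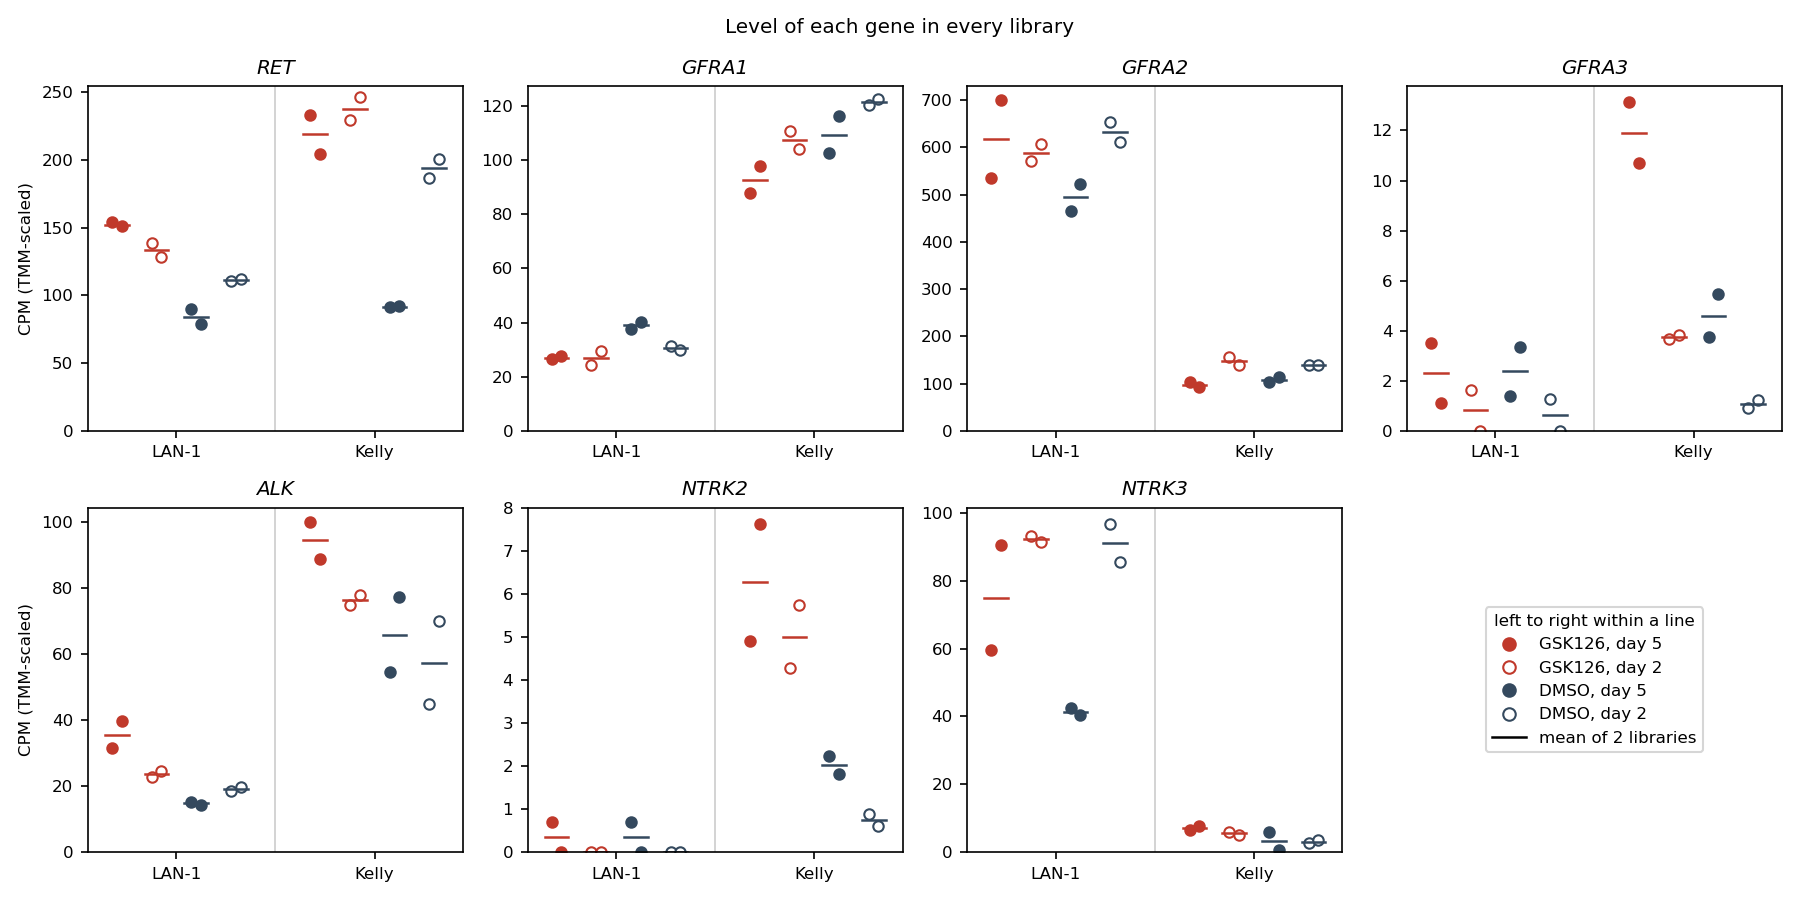
Level of each of the 7 genes in every library, in TMM-scaled CPM on linear axes that start at 0, with LAN-1 left and Kelly right in each panel; points are libraries and bars are means of 2. RET with DMSO at day 5 in Kelly (91.18 and 92.4 CPM) lies far below the other Kelly groups, and NTRK3 with DMSO at day 5 in LAN-1 (42.48 and 40.34 CPM) below the other LAN-1 groups.

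Among the co-receptors, GFRA2 was the only one called with GSK126, in LAN-1 at day 5, and by a small margin. GFRA2 lies at chr8:21547910-21669869 on the minus strand. LAN-1 at day 5 had 535.1 and 699.8 CPM of GFRA2 with GSK126, against 465.9 and 522.7 CPM with DMSO. The groups did not overlap, but the GSK126 duplicates differed from each other more than the nearer of them differed from the DMSO libraries. GFRA2 rose by 0.31 ± 0.09 on the log2 scale (edgeR adjusted p = 0.0396), and the call was lost without LAN-1 GSK126 day 5 replicate 2 (0.12, adjusted p = 0.730). Without LAN-1 DMSO day 5 replicate 1 or replicate 2 the adjusted p was 0.445 and 0.0733, and DESeq2 gave 0.276. Kelly at day 5 had 103.3 and 92.42 CPM with GSK126, against 103.9 and 113.7 CPM with DMSO, a log2 difference of -0.16 ± 0.14 that was not called (edgeR adjusted p = 0.640). The effects in the 2 lines had opposite signs, and their difference of 0.47 ± 0.17 was not called (edgeR adjusted p = 0.162), though it was without LAN-1 GSK126 day 5 replicate 1 (0.67, adjusted p = 0.00654).

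GFRA2 also differed between days. With DMSO in LAN-1 it had 465.9 and 522.7 CPM at day 5, against 655 and 612.6 CPM at day 2. It fell by 0.36 ± 0.09 on the log2 scale (edgeR adjusted p = 0.0309), a call that none of the 4 fits with a library left out kept (adjusted p 0.0674 to 0.720) and that DESeq2 did not make (adjusted p = 0.867). With DMSO in Kelly the log2 difference was nearly equal, -0.35 ± 0.13, but was not called (edgeR adjusted p = 0.377). With GSK126 in Kelly, GFRA2 had 103.3 and 92.42 CPM at day 5, against 157.3 and 139.7 CPM at day 2. This was a fall of 0.60 ± 0.13 on the log2 scale (edgeR adjusted p = 0.00196), with adjusted p of 0.112 without Kelly GSK126 day 5 replicate 2 and 0.110 without Kelly GSK126 day 2 replicate 1. The change with time under GSK126 was compared after the data had been seen.

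GFRA1, the GDNF co-receptor at chr10:117816436-118036315 on the minus strand, had lower values with GSK126 in both lines. LAN-1 at day 5 had 26.58 and 27.55 CPM with GSK126, against 37.6 and 40.34 CPM with DMSO. Kelly at day 5 had 87.71 and 97.77 CPM with GSK126, against 102.4 and 116.1 CPM with DMSO. The groups lay apart in each line, yet neither difference was called, at -0.53 ± 0.24 in LAN-1 (edgeR adjusted p = 0.224) and -0.24 ± 0.14 in Kelly (edgeR adjusted p = 0.411). At day 2 the log2 differences were -0.18 ± 0.24 in LAN-1 and -0.18 ± 0.13 in Kelly, and in DMSO between the days they were 0.34 ± 0.21 and -0.15 ± 0.13. None of these 4 was called.

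GFRA3, the artemin co-receptor at chr5:137588069-137610310 on the minus strand, was near the floor. Its counts summed to 16 over the LAN-1 libraries, with 2 of them at 0, and to 59 over the Kelly libraries. It passed the filter on low counts only through Kelly with GSK126 at day 5, where it had 13.12 and 10.69 CPM, against 3.737 and 5.471 CPM with DMSO. The Kelly libraries at day 2 had 3.673 and 3.828 CPM with GSK126, against 0.8984 and 1.237 CPM with DMSO. Kelly with GSK126 at day 5 thus stood above all other groups, and the Kelly DMSO libraries were higher at day 5 than at day 2. None of these differences was called, at 1.32 ± 0.50 for GSK126 at day 5 (edgeR adjusted p = 0.121), 1.69 ± 0.88 for GSK126 at day 2 (0.693) and 2.01 ± 0.85 for DMSO between days (0.512). The raw counts were 30 with GSK126 and 14 with DMSO at day 5. Their ratio per library total was 2.53, with a 95% counting interval of 1.3 to 5.16. That interval covers counting error only. Its GSK126 group is the one through which GFRA3 passed the filter, so it is no test of the difference.

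ALK was higher with GSK126 in LAN-1 at day 5 and leaned the same way in Kelly, where its duplicates were spread. The gene lies at chr2:29415640-30144452 on the minus strand, and both lines are known to carry an activating mutation in its kinase domain. LAN-1 libraries of day 5 had ALK at 31.48 and 39.67 CPM with GSK126, against 15.32 and 14.29 CPM with DMSO. The GSK126 libraries were the higher ones with a wide gap. ALK rose 2.33-fold (log2 fold change 1.22 ± 0.29, edgeR adjusted p = 0.00407, n = 2 each), and DESeq2 made the same call (adjusted p = 0.0397). With a library left out the log2 fold change was 1.08 to 1.41. The call was lost without LAN-1 GSK126 day 5 replicate 2 (adjusted p = 0.0800), without LAN-1 DMSO day 5 replicate 1 (0.0723) and without LAN-1 DMSO day 5 replicate 2 (0.0712).

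Kelly libraries of day 5 had ALK at 100 and 88.6 CPM with GSK126, against 54.56 and 77.2 CPM with DMSO. The groups did not overlap, but the DMSO duplicates differed by more than the gap between the groups. The log2 difference of 0.50 ± 0.16 fell short of the threshold (edgeR adjusted p = 0.0548). It was 0.78 without Kelly DMSO day 5 replicate 2, where it was called (adjusted p = 0.0246), and 0.28 without replicate 1 of that group (adjusted p = 0.557). The effect in LAN-1 less that in Kelly was 0.73 ± 0.33 and was not called (edgeR adjusted p = 0.312). At day 2, ALK had 22.85 and 24.75 CPM with GSK126 in LAN-1, against 18.57 and 19.69 CPM with DMSO. In Kelly at day 2 it had 74.69 and 77.85 CPM with GSK126, against 44.92 and 69.87 CPM with DMSO. These day 2 differences, 0.32 ± 0.28 in LAN-1 and 0.36 ± 0.17 in Kelly, were not called (edgeR adjusted p = 0.936 and 0.604), nor were those between days in DMSO. CLIP4 overlaps ALK on the opposite strand and had 117 counts over the LAN-1 libraries and 329 over the Kelly libraries, beside 238 and 845 for ALK. The strand setting of the counting is not given in the sources used here, so reads of the overlap cannot be told apart.

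NTRK3 was a LAN-1 gene in these data, and it differed there with GSK126 and with time. It lies at chr15:88402982-88800022 on the minus strand. At day 5 NTRK3 had 59.46 and 90.36 CPM with GSK126 in LAN-1, against 42.48 and 40.34 CPM with DMSO. At day 2 it had 93.03 and 91.27 CPM with GSK126, against 96.69 and 85.57 CPM with DMSO. The DMSO libraries at day 5 were the low ones, the day 2 groups overlapped, and 1 of the day 5 GSK126 libraries was at the day 2 level. NTRK3 rose with GSK126 at day 5 by 0.80 ± 0.20 on the log2 scale (edgeR adjusted p = 0.00788, n = 2 each). That call was lost without LAN-1 GSK126 day 5 replicate 2 (0.52, adjusted p = 0.368), without LAN-1 DMSO day 5 replicate 1 (0.0937), without LAN-1 DMSO day 5 replicate 2 (0.104) and with DESeq2 (0.162). Without LAN-1 GSK126 day 5 replicate 1 the log2 fold change was 1.12 (adjusted p = 0.000546). At day 2 the difference was 0.01 ± 0.16 (edgeR adjusted p = 1).

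With DMSO in LAN-1, NTRK3 fell by 1.14 ± 0.18 on the log2 scale at day 5 relative to day 2 (edgeR adjusted p = 1.17e-05). Leaving out each library gave a fall of 1.04 to 1.22 with adjusted p up to 0.0111, and DESeq2 gave 0.0345. With GSK126 in LAN-1 the log2 difference between the same days was -0.35 ± 0.17 and was not called (edgeR adjusted p = 0.385). The difference of these changes, 0.78 ± 0.26, was not called (edgeR adjusted p = 0.175), though it was without LAN-1 GSK126 day 5 replicate 1 (1.11, adjusted p = 0.0137). The GSK126 contrast at day 5 and the DMSO time contrast share the DMSO libraries of day 5. NTRK3-AS1, on the opposite strand, had 7 counts in LAN-1 and 0 in Kelly.

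In Kelly, NTRK3 had 6.558 and 7.638 CPM with GSK126 at day 5, against 5.979 and 0.608 CPM with DMSO. At day 2 it had 6.122 and 5.105 CPM with GSK126, against 2.695 and 3.71 CPM with DMSO. Both days had the GSK126 libraries above the DMSO libraries, at 54 counts over all 8 Kelly libraries. Neither difference was called, at 1.21 ± 0.58 on day 5 (edgeR adjusted p = 0.269) and 0.76 ± 0.59 on day 2 (0.822). Kelly DMSO day 5 replicate 1 set the day 5 value, since it was 3.36 without that library (adjusted p = 0.0345) and 0.24 without replicate 2 of that group (0.939).

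NTRK2, at chr9:87283290-87710666 on the plus strand, had too few counts to pass the filter and was not among the genes tested. LAN-1 held 2 NTRK2 counts over 8 libraries, and 6 of these libraries were at 0. Kelly libraries of day 5 had 4.918 and 7.638 CPM with GSK126, against 2.242 and 1.824 CPM with DMSO. At day 2 Kelly had 4.286 and 5.743 CPM with GSK126, against 0.8984 and 0.6183 CPM with DMSO. The GSK126 libraries were higher on both days, on sums of 16 counts with GSK126 and 6 with DMSO at day 5, and 16 and 2 at day 2. The ratio per library total was 3.15 at day 5 (95% counting interval 1.17 to 9.81) and 6.82 at day 2 (1.60 to 61.2). Intervals of this kind cover counting error only, and reads without molecular identifiers are not independent molecules. In a fit with no filter on low counts, edgeR gave adjusted p of 0.332 at day 5 and 0.567 at day 2.

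Of the 6 receptor genes that passed the filter, edgeR called 4 in LAN-1 at day 5, all higher with GSK126. Of all genes tested there, 3.66% were called and 2.45% were called higher. DESeq2 called RET and ALK of these 4, and the GFRA2, ALK and NTRK3 calls were each lost without single libraries, as given above. The 7 genes were chosen with earlier results of these data known. In Kelly at day 5, 1 of the 6 was called, RET, which was higher, while 4.9% of all genes were called and 3.3% were called higher. At day 2, edgeR and DESeq2 called 0 of the 6 in either line, while edgeR called 0.152% of all genes in LAN-1 and 0.177% in Kelly. At an unadjusted p under 0.05, 1 of the 6 in LAN-1 and 2 in Kelly would have been counted at day 2, beside 739 and 887 of the 11863 genes tested. With DMSO, 2 of the 6 were called lower at day 5 than at day 2 in LAN-1 (0.438% of all genes called in either direction, 0.32% lower) and 1 in Kelly (0.438%, 0.202% lower).

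The difference of the GSK126 effect between the lines was called by edgeR and by DESeq2 for 0 of the 6, at day 2 (0.00843% of all genes called) and at day 5 (1.85%). At an unadjusted p under 0.05 the counts were 0 and 3 of the 6, beside 619 and 1549 of the 11863 genes tested. For RET it was -0.40 ± 0.19 on the log2 scale at day 5 (edgeR adjusted p = 0.322). Between days, the GSK126 effect differed for RET in Kelly (0.379% of all genes called) and for 0 of the 6 in LAN-1 by either tool (0.539%). In LAN-1, 4 of the 6 had an unadjusted p under 0.05 for this day difference, beside 1187 of the 11863 genes tested. The change with time in DMSO was not called different between the lines for any of the 6 by either tool (0.0253% of all genes called, 0.0169% toward LAN-1). An unadjusted p under 0.05 for this line difference was found for 1 of the 6, beside 701 of the 11863 genes tested. For RET that difference, LAN-1 less Kelly, was 0.69 ± 0.19 (edgeR adjusted p = 0.236). With GSK126, the change between days was called for 1 of the 6 in Kelly, GFRA2, which was lower at day 5 (2.94% of all genes called, 0.944% lower). In LAN-1 it was called by either tool for 0 of the 6 (1.22%, 0.346% lower). There 2 of the 6 had an unadjusted p under 0.05, beside 1477 of the 11863 genes tested.

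**Figure D2:**
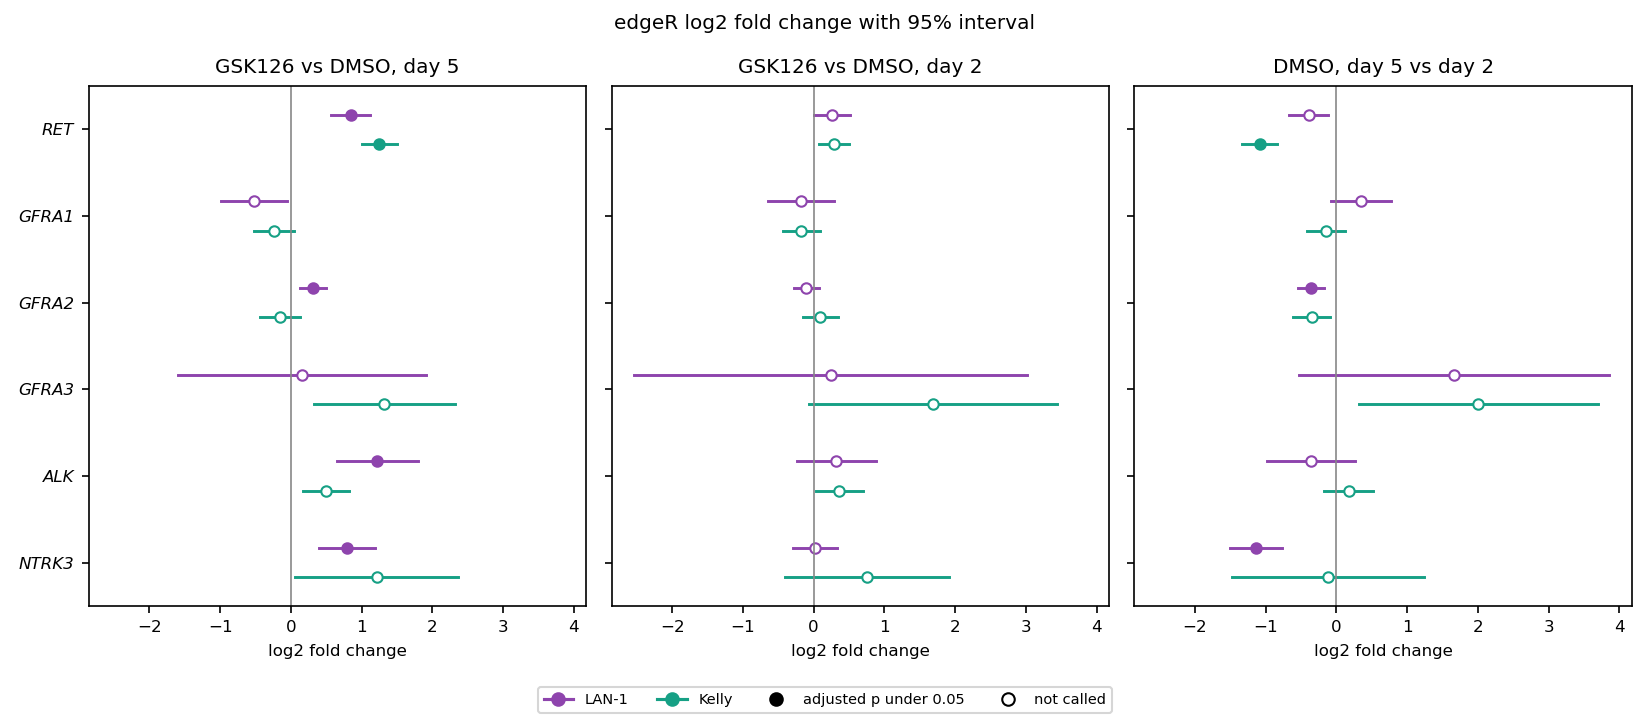
edgeR log2 fold changes with 95% intervals for the 6 tested genes, LAN-1 in purple above Kelly in green; the panels show GSK126 against DMSO at day 5 and at day 2, and DMSO at day 5 against day 2. Filled points passed the adjusted p of 0.05: RET in both lines and GFRA2, ALK and NTRK3 in LAN-1 at day 5, none at day 2, and in DMSO over time RET in Kelly and GFRA2 and NTRK3 in LAN-1.

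**Figure D3:**
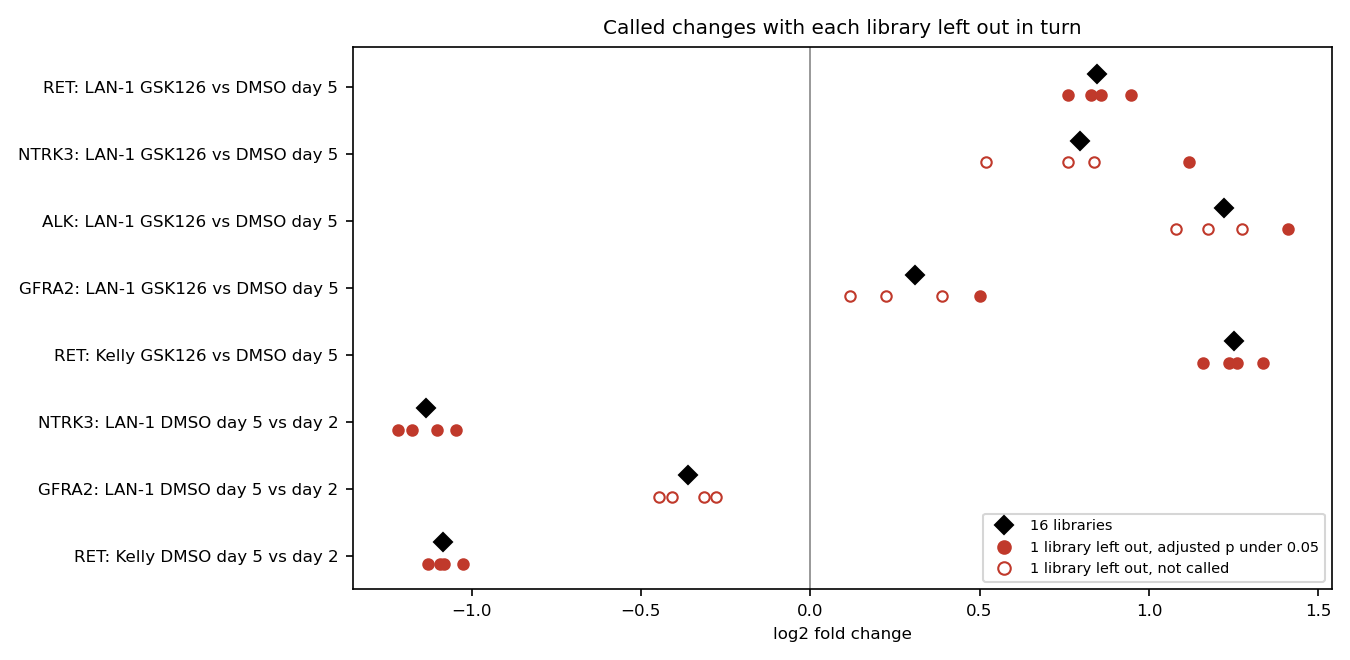
Log2 fold change of each call above with all 16 libraries (diamonds) and with each of the 4 libraries of the comparison left out in turn (circles, filled where the adjusted p was under 0.05). The RET calls and the fall of NTRK3 in DMSO kept 4 filled circles, GFRA2, ALK and NTRK3 with GSK126 in LAN-1 kept 1, and GFRA2 in DMSO kept 0.

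Between the lines, NTRK3 and GFRA2 were higher in LAN-1, and ALK, GFRA1 and RET were lower there. In DMSO, as the mean of both days, 5 of the 6 were called between LAN-1 and Kelly, while 67.7% of all genes were, with 33.5% of all genes higher in LAN-1 and 34.2% lower. NTRK3 averaged 66.27 CPM in LAN-1 and 3.248 CPM in Kelly, a log2 difference of 4.25 ± 0.25 (edgeR adjusted p = 1.75e-32). GFRA2 averaged 564.0 CPM in LAN-1 and 124.1 CPM in Kelly (2.18 ± 0.08, edgeR adjusted p = 2.35e-52). ALK averaged 16.97 CPM in LAN-1 and 61.64 CPM in Kelly (-1.89 ± 0.17), and GFRA1 averaged 34.80 CPM in LAN-1 and 115.3 CPM in Kelly (-1.74 ± 0.12). The libraries of the lines lay apart for these 4 genes. RET averaged 97.91 CPM in LAN-1 and 142.8 CPM in Kelly (-0.46 ± 0.09, edgeR adjusted p = 9.05e-06), but its DMSO libraries overlapped between the lines. GFRA3 was not called between the lines (-0.84 ± 0.76, edgeR adjusted p = 0.330).

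Per kb of transcript, GFRA2 had the highest level of the 7 genes in LAN-1, while RET and GFRA2 shared the top in Kelly in an order that depended on the length used. Mean levels per kb over the 8 libraries of LAN-1 were 117 CPM per kb for GFRA2, 21.4 for RET, 3.74 for ALK, 3.74 for NTRK3, 3.37 for GFRA1, 0.771 for GFRA3 and 0.0201 for NTRK2. In Kelly they were 33.1 CPM per kb for RET, 24.8 for GFRA2, 11.8 for GFRA1, 11.8 for ALK, 2.68 for GFRA3, 0.406 for NTRK2 and 0.240 for NTRK3. By the union of all exons in place of the canonical transcript, Kelly had 20.7 CPM per kb for RET and 21.4 for GFRA2, and LAN-1 had 13.4 for RET and 101 for GFRA2. In Kelly with DMSO at day 5, RET averaged 16.3 CPM per kb and GFRA2 21.8 by the canonical transcript. Of the co-receptor signal per kb, GFRA2 made up 94.5% to 97.5% in the LAN-1 libraries and 53.6% to 69.3% in the Kelly libraries. In Kelly, GFRA3 made up 17.9% and 15.6% of it with GSK126 at day 5, against 5.55% and 7.20% with DMSO. Those shares were 4.06% and 4.67% with GSK126 at day 2, against 1.08% and 1.49% with DMSO. The GFRA3 counts behind them were 16 and 14 against 5 and 9 at day 5, and 6 and 6 against 1 and 2 at day 2. Neither GFRA3 difference was called, and the gene passed the filter only through Kelly with GSK126 at day 5. The ratio of RET to the summed co-receptors per kb in Kelly at day 5 was 1.13 and 1.05 with GSK126, against 0.479 and 0.431 with DMSO. That ratio in LAN-1 at day 5 was 0.245 and 0.187 with GSK126, against 0.163 and 0.127 with DMSO. The ratio was thus above the DMSO libraries in both lines, and it stayed far lower in LAN-1 than in Kelly.

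**Figure D4:**
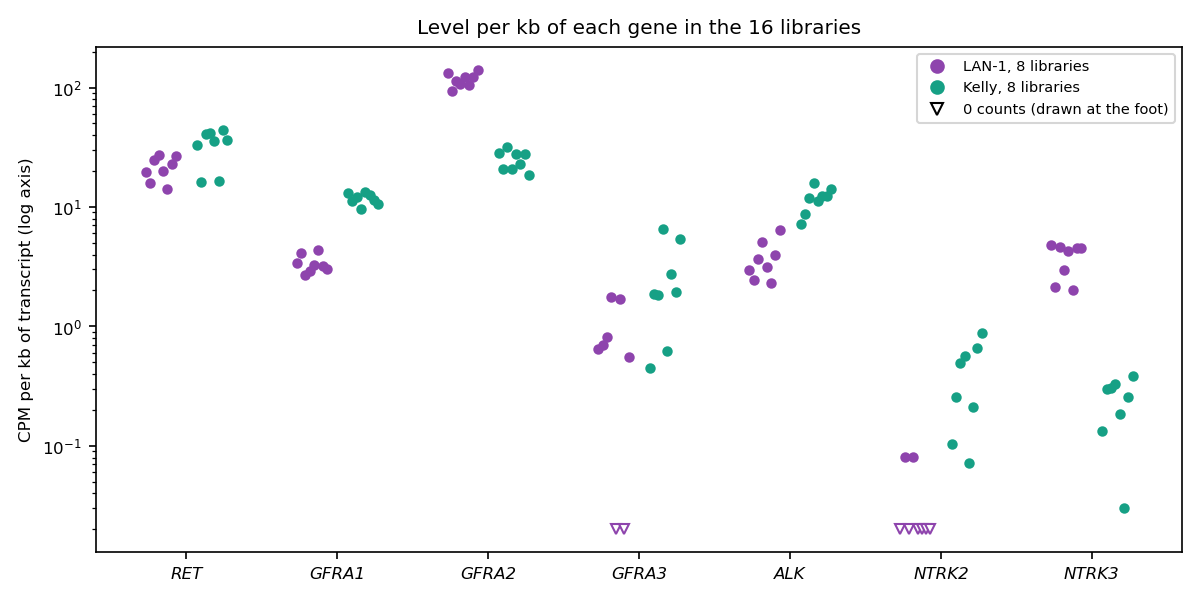
CPM per kb of the canonical transcript on a log axis, for each of the 7 genes in the 8 LAN-1 libraries (purple) and the 8 Kelly libraries (green); triangles at the foot mark libraries with 0 counts. GFRA2 and NTRK3 are the genes with LAN-1 above Kelly, and NTRK2 has 6 LAN-1 libraries at 0.

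Over the 8 groups, RET was highest in Kelly with GSK126, with means of 237.9 CPM at day 2 and 219.2 CPM at day 5 that overlapped, and lowest in LAN-1 with DMSO at day 5 (84.41 CPM). Kelly with DMSO at day 5 (91.79 CPM) ranked just above that group, below all of LAN-1's other groups. ALK was ordered with all Kelly groups above all LAN-1 groups, at 94.31 CPM in Kelly with GSK126 at day 5 and 14.80 CPM in LAN-1 with DMSO at day 5. Its Kelly groups with DMSO and with GSK126 at day 2 overlapped with their neighbours. NTRK3 ran the other way, and its top 3 groups, LAN-1 with GSK126 at day 2, DMSO at day 2 and GSK126 at day 5, overlapped as neighbours. GFRA2 likewise had its top 3 groups, LAN-1 with DMSO at day 2 and with GSK126 at both days, overlapping.

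Likeness to the called receptor genes was sought among 10025 genes with a mean of at least 10 CPM. Each line's own mean over its 4 groups was first subtracted from the group means of log2 CPM. By Pearson's r of these values, the genes most like RET were MCF2L (r 0.985 over 8 groups), AKAP12 (0.978) and AGO4 (0.963). For GFRA2 they were NAA60 (0.983), OSBPL7 (0.971) and TLX2 (0.953). For ALK they were PRAME (0.984), S1PR3 (0.979) and BACH2 (0.976). For NTRK3 they were GLG1 (0.973), ANXA5 (0.970) and BBS10 (0.959). By Spearman's rho the order differed, with AGO4 at rank 36 and AKAP12 at rank 62 for RET, TLX2 at rank 23 for GFRA2, and GLG1 at rank 26 and BBS10 at rank 53 for NTRK3. The other 7 ranked between 1 and 3. The subtraction removed the mean difference between the lines. These values are descriptions, with no test, since the genes named were the most alike of 10025 over only 8 points, 4 from each line.

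Counts of several ligand genes were low. NTF3, which encodes neurotrophin-3, had 0 counts in LAN-1 and 1 in Kelly. GDNF had 19 counts over the LAN-1 libraries and 54 over the Kelly libraries, and neurturin (NRTN) had 53 and 4. The ALK ligand genes, listed as FAM150A and FAM150B, had 6 and 16 counts in LAN-1 and 8 and 8 in Kelly. BDNF, the TRKB ligand, had a median of 10.7 CPM in LAN-1 and 23.4 CPM in Kelly. Midkine (MDK), which has been described as an ALK ligand, was abundant, with a median of 688 CPM in LAN-1 and 390 CPM in Kelly.

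Of 26 proteins that dock to RET or turn it over, 21 were tested. In LAN-1 at day 5, 2 were higher with GSK126 and 0 lower by edgeR, where 2.45% of all genes were called higher, and DESeq2 called 1. Their median log2 fold change was 0.01, beside 0.00 over all genes tested. SHC3, a neuronal SHC adaptor, had 32.88 and 38.57 CPM with GSK126, against 9.053 and 10.92 CPM with DMSO. It rose by 1.82 ± 0.30 on the log2 scale (edgeR adjusted p = 1.02e-05), a call kept whichever of the 4 libraries was left out. In Kelly, SHC3 had 47.54 and 48.12 CPM with GSK126, against 36.62 and 46.81 CPM with DMSO. The effect in LAN-1 exceeded that in Kelly by 1.64 ± 0.37 (edgeR adjusted p = 0.00340). DOK4, a docking protein that RET phosphorylates, rose with GSK126 at day 5 by 0.40 ± 0.10 in LAN-1 (edgeR adjusted p = 0.00534) and by 0.42 ± 0.10 in Kelly (0.00329). Each of these DOK4 calls was lost in 2 of the 4 fits with a library left out, with adjusted p up to 0.375 without LAN-1 DMSO day 5 replicate 1 and 0.207 without Kelly GSK126 day 5 replicate 1.

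With DMSO, DOK4 had 468 and 576.5 CPM in LAN-1 at day 5, against 956.6 and 794.6 CPM at day 2, and 354.2 and 409.1 CPM in Kelly at day 5, against 585.8 and 573.8 CPM at day 2. DOK4 fell by 0.75 ± 0.09 in LAN-1 (edgeR adjusted p = 7.48e-09) and by 0.60 ± 0.10 in Kelly (4.91e-05), and both calls were kept in all 4 fits with a library left out. With GSK126 in Kelly at day 5, 1 of the 21 was higher and 2 were lower by edgeR, where 3.3% of all genes were called higher and 1.6% lower, and DESeq2 called 1 in all. Their median log2 fold change was -0.01, beside 0.01 over all genes tested. The lower ones were GAB2, an adaptor of PI3K signalling (-0.63 ± 0.13, edgeR adjusted p = 0.000477, kept in 4 of 4 fits), and SHC1 (-0.39 ± 0.11, 0.0122, kept in 1 of 4, up to 0.227 without Kelly GSK126 day 5 replicate 2).

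Among the other neurotrophin receptors, NGFR, the p75 neurotrophin receptor, had 18.85 and 15.28 CPM with GSK126 in Kelly at day 5, against 6.726 and 4.255 CPM with DMSO. It rose by 1.65 ± 0.42 on the log2 scale (edgeR adjusted p = 0.00689), a call kept in 2 of the 4 fits with a library left out (up to 0.219 without Kelly DMSO day 5 replicate 2). NGFR passed the filter on low counts only through libraries with GSK126, the condition in which it was high. LAN-1 at day 5 had 8.394 and 11.02 CPM of NGFR with GSK126, against 3.482 and 2.521 CPM with DMSO. That log2 difference of 1.60 ± 0.58 was not called (edgeR adjusted p = 0.106). SORL1, a sorting receptor, had 54.56 and 47.39 CPM with GSK126 in LAN-1 at day 5, against 27.86 and 25.21 CPM with DMSO. It rose by 0.95 ± 0.23 (edgeR adjusted p = 0.00431), kept in 1 of 4 (up to 0.0806 without LAN-1 GSK126 day 5 replicate 1). Kelly at day 5 had 33.61 and 35.14 CPM of SORL1 with GSK126, against 21.67 and 20.06 CPM with DMSO, a log2 difference of 0.72 ± 0.25 that was not called (edgeR adjusted p = 0.0735).

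Of 9 genes around ALK, its ligands, relatives and phosphatases, 4 were tested. At day 5 in LAN-1, 1 of them was higher with GSK126 and 0 lower, where 2.45% of all genes were called higher, with a median log2 fold change of 0.45 beside 0.00 over all genes tested. DESeq2 called 0 of the 4 there, and 2 had an unadjusted p under 0.05 in edgeR, beside 1984 of the 11863 genes tested. With GSK126 in Kelly at day 5, edgeR and DESeq2 called 0 of the 4, where edgeR called 4.9% of all genes. There 1 of the 4 had an unadjusted p under 0.05, beside 1957 of the 11863 genes tested. SDC3, a cell surface proteoglycan, had 69.95 and 103.6 CPM with GSK126 in LAN-1, against 36.91 and 63.87 CPM with DMSO. It rose by 0.76 ± 0.19 (edgeR adjusted p = 0.00590), kept in 2 of 4 fits with a library left out (up to 0.481 without LAN-1 DMSO day 5 replicate 1). SDC3 had 99.19 and 83.26 CPM with GSK126 in Kelly, against 109.1 and 94.83 CPM with DMSO. Its effect was larger in LAN-1 than in Kelly by 0.92 ± 0.24 (edgeR adjusted p = 0.0178).

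Of 17 feedback regulators and targets of ERK, a kinase downstream of these receptors, 14 were tested. With GSK126 in LAN-1 at day 5, 2 were higher and 0 lower by edgeR, where 2.45% of all genes were called higher, and DESeq2 called 0. The median log2 fold change of the 14 was 0.58, beside 0.00 over all genes tested. An unadjusted p under 0.05 was found for 6 of the 14, beside 1984 of the 11863 genes tested. Of these 6, only 2 were called after adjustment. They were DUSP4, an ERK phosphatase (0.99 ± 0.23, edgeR adjusted p = 0.00281, kept in 2 of 4 fits, up to 0.0808 without LAN-1 GSK126 day 5 replicate 2), and SPRED2 (0.48 ± 0.14, 0.0335, kept in 1 of 4, up to 0.430 without LAN-1 GSK126 day 5 replicate 2). With GSK126 in Kelly at day 5, 3 were higher and 0 lower by edgeR, where 3.3% of all genes were called higher, and DESeq2 called 2. Their median was 0.33, beside 0.01 over all genes tested. SPRY4, a Sprouty inhibitor of receptor signalling, had 45.09 and 37.43 CPM with GSK126, against 16.44 and 13.98 CPM with DMSO (1.44 ± 0.26, edgeR adjusted p = 2.5e-05). PHLDA1 had 38.53 and 26.73 CPM with GSK126, against 8.968 and 6.687 CPM with DMSO (2.06 ± 0.31, 3.22e-07). Both SPRY4 and PHLDA1 kept the call in all 4 fits with a library left out, and DUSP6 was the other gene called. The day 5 effect in LAN-1 less that in Kelly was called for 1 of the 14, PHLDA1 (-2.06 ± 0.40, edgeR adjusted p = 0.000423). Of all genes, 1.85% were called for this difference. It was not called for SPRY4 (0.77 ± 0.95), DUSP4 (0.71 ± 0.34) or SPRED2 (0.37 ± 0.20).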

How the data were processed

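The authors deposited 1 table of whole-number read counts per gene symbol with no normalization, 25728 symbols by 16 libraries. The genome build was GRCh37 (hg19), and the tools were featureCounts, TopHat2 and FastQC, per the submitters' processing notes; versions, strand setting, annotation and treatment of reads shared by genes are not given in the sources used here. Libraries were grouped by the line, treatment and time in the labels. The 7 genes and all gene lists were chosen with earlier results of these data known. The rule named the 7 genes throughout, and from each list up to 4 genes, by smallest adjusted p, called in any of the 4 GSK126 or 2 DMSO time comparisons. Results for a few of these list genes, and list counts that include them, are not reported here.

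Counts were fitted in edgeR 4.0.16 (R 4.3.3) by the robust quasi-likelihood test, with 1 mean per group over all 16 libraries (8 residual degrees of freedom), TMM scaling and filterByExpr at 10 counts. This left 11863 genes, with a common biological coefficient of variation of 5.31%. P-values were adjusted by Benjamini-Hochberg over these genes, and a gene was called under 0.05. SE is the log2 fold change over the root of F. Counting intervals are exact at 95%. The script was checked on simulated counts. Alternatives were DESeq2 1.42.0, RLE scaling, a filter at 5 counts or none, each line alone, a replicate block, unscaled totals for levels, and each library left out. Lengths and positions came from GENCODE 44 lifted to GRCh37 (canonical transcript, or the union of exons as an alternative added after the data had been seen).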

Additional observations from a re-analysis of the deposited data

Results flagged for a closer look

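RET in Kelly differed between the days in its response to GSK126. The log2 effect was larger by 0.96 ± 0.16 at day 5 than at day 2 (edgeR adjusted p = 4.61e-05, n = 2 each in 4 groups), by a test of the difference itself. Leaving out each of the 8 libraries gave 0.87 to 1.06, and DESeq2 gave an adjusted p of 0.00432. The GSK126 libraries had 233.6 and 204.7 CPM at day 5, against 229.6 and 246.3 CPM at day 2. The DMSO libraries had 91.18 and 92.4 CPM at day 5, against 186.9 and 200.9 CPM at day 2, so the larger effect at day 5 came with a lower DMSO level and no called change under GSK126.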

How the results depend on the processing

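No value of the 7 genes changed sign past the threshold under any alternative run. The RET calls in LAN-1 and Kelly at day 5, in DMSO over time in Kelly and between days in Kelly, and the fall of NTRK3 in DMSO in LAN-1, held under all of them. RLE scaling, the filter at 5 counts and no filter kept all 84 gene values on their side of the threshold. DESeq2 moved 3 of 84: in LAN-1 it called 2 of the genes at day 5, against 4 by edgeR, and 1 in DMSO over time, against 2. With each line fitted alone, 2 of the genes were called with GSK126 over time in Kelly, against 1, adding GFRA3 (adjusted p = 0.0376), which passed the filter only through the higher group of that comparison. Of 480 values with a library left out, 15 lost a call and 5 gained one.

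Deviations of same-numbered libraries correlated at -0.0876 to 0.0671 over 12 pairs of groups of a line. This cannot show whether the replicate numbers paired the libraries, since most duplicates differed by little more than counting alone. With a replicate block, 1 of 84 values lost its call, GFRA2 with GSK126 in LAN-1 at day 5 (adjusted p = 0.0506); 8 genes in all were called in Kelly at day 2, against 21, and 0 for the line difference in DMSO over time, against 3.

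Counts over all genes by DESeq2 were, with edgeR's after them, 2 against 18 and 107 against 434 in LAN-1 at day 2 and day 5, and 3 against 21 and 163 against 581 in Kelly. For DMSO over time they were 19 against 52 in LAN-1 and 11 against 52 in Kelly, and for GSK126 over time 34 against 145 and 64 against 349. For the line difference of the GSK126 effect they were 0 against 1 at day 2 (2 with no filter) and 59 against 220 at day 5; for its day difference 15 against 64 in LAN-1 and 13 against 45 in Kelly; and for the line difference in DMSO over time 0 against 3. The cause was not tested.

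With a library left out, all-gene counts ran in LAN-1 from 3 to 14 at day 2 and 139 to 735 at day 5, and in Kelly from 2 to 11 and 239 to 355. They ran from 21 to 32 and 10 to 40 in DMSO over time in LAN-1 and Kelly, and from 21 to 382 and 104 to 174 with GSK126 over time. Line differences ran from 0 to 2 at day 2, 117 to 479 at day 5 and 0 to 12 in DMSO over time. Day differences ran from 24 to 223 in LAN-1 and 22 to 46 in Kelly, and the lines in DMSO from 7562 to 8021. Of the 7 receptor genes, 1 to 4 were called in LAN-1 and 1 to 2 in Kelly at day 5, 1 to 1 in DMSO over time in LAN-1, 0 to 1 for the line difference at day 5, 0 to 2 for the day difference in LAN-1, 5 to 6 between the lines in DMSO (the added one NTRK2, which passed the filter without LAN-1 DMSO day 5 replicate 1, adjusted p = 0.0398) and 0 to 1 with GSK126 over time in Kelly.

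With unscaled totals, 2 of 56 mean levels moved by more than 1 SD, RET in LAN-1 with DMSO at day 2 (108.6 CPM) and NTRK3 in LAN-1 with GSK126 at day 2 (90.79 CPM). With 2 libraries a group and about 1e6 counts each, 3 counts are 1.80 to 3.29 CPM in a library, so GFRA3, NTRK2 and NTRK3 in Kelly lay near what depth allows.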

Other observations

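Some transcription factors reported at RET, ALK or TRK genes also differed. HAND2, a core factor of sympathetic neurons, had 600 and 600.4 CPM with GSK126 in Kelly at day 5, against 1009.7 and 899.7 CPM with DMSO (-0.67 ± 0.09, edgeR adjusted p = 7.79e-10), a call kept in all 4 fits with a library left out. In LAN-1 at day 5 its log2 difference was -0.11 ± 0.09 and was not called (edgeR adjusted p = 0.611). With DMSO, TBX2 was lower at day 5 than at day 2, by -0.52 ± 0.09 in LAN-1 (edgeR adjusted p = 6.19e-05, kept in 4 of 4 fits) and by -0.47 ± 0.10 in Kelly (0.00518, kept in 2 of 4, up to 0.620 without Kelly DMSO day 5 replicate 1). By edgeR, GATA2 and TBX3 were called lower at day 5 in both lines as well, where 0.32% of all genes in LAN-1 and 0.202% in Kelly were called lower. DESeq2 called fewer of these factors than edgeR in each line. With GSK126 at day 5, TBX2 was higher in Kelly by 0.38 ± 0.10 (edgeR adjusted p = 0.0129). In LAN-1 its difference of 0.25 ± 0.09 was not called (0.132).

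All 11 PRC2 subunits checked were tested, and edgeR and DESeq2 called 0 of them in each of the 4 GSK126 and 2 DMSO time comparisons. At an unadjusted p under 0.05 there were 2 in LAN-1 and 5 in Kelly with GSK126 at day 5, 1 and 3 at day 2, and 1 and 0 in DMSO over time. Over the 11863 genes tested, the numbers at that p were 1984 and 1957, 739 and 887, and 872 and 914, in the same order. Of all genes, edgeR called 3.66% and 4.9% at day 5, 0.152% and 0.177% at day 2, and 0.438% in each line in DMSO over time. EZH2 itself had a median of 121 CPM over the LAN-1 libraries (100 to 149) and 219 CPM over the Kelly libraries (179 to 263).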
